A study of Homo sapiens with 10 samples.

Results

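The ICAM adhesion family (intercellular adhesion molecules) was followed through its 5 genes, ICAM1, ICAM2, ICAM3, ICAM4 and ICAM5. They were chosen by symbol among the protein-coding rows of both deposited expression tables, so 5 of the 60603 genes listed, and 5 of the 19975 protein-coding ones, were members. The measurements were mRNA sequencing of NB4 cells, a human acute promyelocytic leukemia line that carries the PML-RARA fusion. In the knockdown experiment, 6 cultures were harvested 48 hours after lentiviral transduction: 2 with pLKO.1 puro lacking an insert (the empty vector, EV), 2 with this vector carrying the hairpin shA1 against GSE1, and 2 with the hairpin shB2 against GSE1. In the LSD1 inhibition experiment, 4 cultures were sampled after 24 hours: 2 with the solvent DMSO and 2 with 2 µM MC2580, an inhibitor of the histone demethylase LSD1. The transduced cells all carried the vector, the control cells included, and for the 4 cultures of the second experiment the labels name no vector. Every group came from 1 cell line.

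The columns used for the ICAM genes hold 1 value per gene and experiment, the base mean, which is the mean of size-factor-scaled read counts over all libraries of that experiment. EV, shA1 and shB2 were thus pooled in one value, and DMSO and MC2580 in the other. No replicate spread, no depth per library and no difference between a treated group and its control can be read from such a mean. All values below are therefore the authors' pooled means, given as descriptions without a test. In bulk RNA, fewer cells that express a gene and less of its RNA per cell cannot be told apart.

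ICAMs are membrane glycoproteins of the immunoglobulin superfamily that hold leukocytes to other cells. Their main receptors are the leukocyte beta2 integrins, dimers of the ITGB2 chain with ITGAL (LFA-1), ITGAM (Mac-1), ITGAX or ITGAD, and their cytoplasmic tails bind actin linkers such as ezrin, moesin and alpha-actinin. ICAM1 (CD54) is inducible by inflammatory cytokines in many cell types and supports the firm arrest of leukocytes on endothelium. ICAM2 is carried by endothelial cells, platelets and leukocytes, ICAM3 by resting leukocytes, ICAM4 (the LW blood group antigen) by erythroid cells, and ICAM5 (telencephalin) by neurons of the forebrain.

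In the GENCODE 44 annotation of hg38, 4 of the 5 genes lie within 68.6 kb of chromosome 19. ICAM1 (ENSG00000090339.9, chr19:10271093-10286615, plus strand, 7 exons), ICAM4 (ENSG00000105371.10, chr19:10286955-10288522, plus strand, 3 exons) and ICAM5 (ENSG00000105376.5, chr19:10289952-10296778, plus strand, 11 exons) follow each other in the same direction. The gap between ICAM1 and ICAM4 is 339 bp and that between ICAM4 and ICAM5 is 1429 bp. ICAM3 (ENSG00000076662.10, chr19:10333776-10339661, minus strand, 7 exons) lies 37.0 kb beyond ICAM5 and is read in the opposite direction. ICAM2 (ENSG00000108622.11, chr17:64002594-64020634, minus strand, 5 exons) is the member outside the cluster. Exons are those of the canonical transcript, and identifier versions are those of the deposited tables.

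The map of the chromosome 19 cluster shows how closely the genes are packed.

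**Figure D1:**
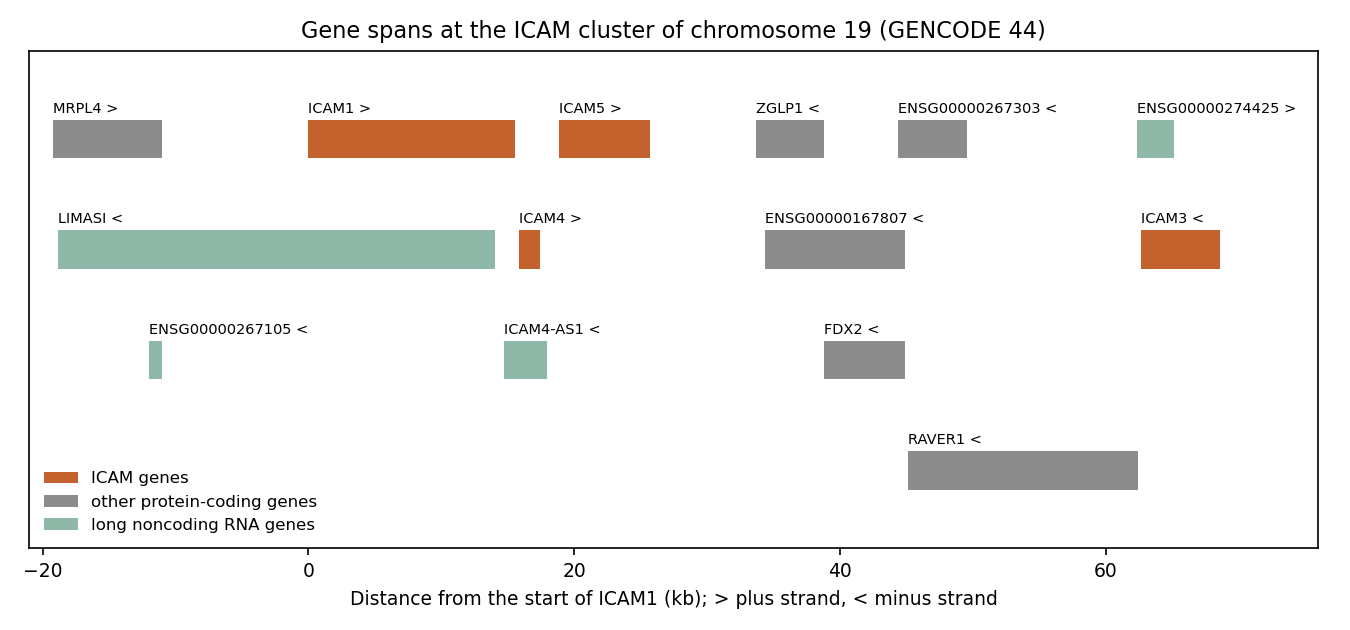
Gene spans at the ICAM cluster of chromosome 19, with the distance from the start of ICAM1 in kb on the horizontal axis. Orange bars are ICAM genes, grey bars other protein-coding genes and green bars long noncoding RNA genes; rows only keep the bars apart. ICAM1, ICAM4 and ICAM5 adjoin each other, ICAM4 lies within the span of ICAM4-AS1, and ICAM3 overlaps the noncoding gene ENSG00000274425.

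The promoter sequences of 3 members are shown because they head the order of expression per kb in these cells. Of the stretches printed, only that of ICAM1 holds matches to the motifs searched. They are given 5′ to 3′ on the strand of the gene from RefSeq (GRCh38.p14), each ending at the base before the first GENCODE transcript. Capitals mark matches to the motifs searched, and lower case is used elsewhere. The stretches are chr19:10270870-10271092 (plus strand) for ICAM1, chr19:10286705-10286954 (plus strand) for ICAM4 and chr19:10339662-10339874 (minus strand) for ICAM3.
ICAM1: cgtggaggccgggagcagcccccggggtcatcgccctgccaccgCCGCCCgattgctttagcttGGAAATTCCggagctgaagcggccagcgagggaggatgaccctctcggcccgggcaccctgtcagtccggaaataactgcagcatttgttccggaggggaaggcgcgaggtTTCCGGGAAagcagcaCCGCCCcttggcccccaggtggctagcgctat
ICAM4: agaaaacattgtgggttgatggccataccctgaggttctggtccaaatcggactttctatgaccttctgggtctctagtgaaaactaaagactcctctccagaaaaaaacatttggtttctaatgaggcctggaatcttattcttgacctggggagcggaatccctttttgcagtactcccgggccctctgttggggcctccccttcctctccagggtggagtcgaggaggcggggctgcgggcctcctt
ICAM3: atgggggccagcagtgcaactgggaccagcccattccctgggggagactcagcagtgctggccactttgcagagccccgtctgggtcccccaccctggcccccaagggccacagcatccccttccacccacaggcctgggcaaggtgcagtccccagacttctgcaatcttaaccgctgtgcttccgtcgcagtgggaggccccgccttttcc

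In this family the promoter of ICAM1 held the most matches. Both strands were searched in windows running from 250 bases before to 50 bases after each RefSeq start site, of which 6 belonged to 4 members. The letters GGAANTTCC, a core of the NF-kB site, were matched in ICAM1 by GGAAATTCC, which begins 186 bases before its RefSeq start site (position 10271120), and 0.965% of 35116 windows of the same length held such a match. TTCNNNGAA, the spacing of a STAT-binding GAS element, was matched in ICAM1 by TTCCGGGAA, 75 bases before the start, against 7.66% of all windows. GGGCGG, the core of the Sp1 box, occurred at 206 and 59 bases before the ICAM1 start, against 45.0% of all windows. TATAAA stood 30 bases before the ICAM1 start, against 11.5% of all windows, and runs past the end of the stretch printed above. None of these 5 matches overlapped another.

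The windows of ICAM3, ICAM4 and ICAM5 held fewer of these matches, and ICAM2 was not searched. ICAM5 had GGGCGG at 90 and 67 bases before its start, and ICAM3 had it at 188 and 33 bases before the innermost of its 3 RefSeq start sites (position 10334820), outside the stretch printed. The ICAM4 window matched none of the motifs. TGANTCA (AP-1), found in 7.71% of all windows, and GAAANNGAA (a core of the interferon-stimulated response element), found in 8.11%, were matched in none of the 6 windows. The 4 motifs with matches and these 2 were all that was searched. The GC content of the stretches was 66.4% for ICAM1, 65.7% for ICAM3 and 52.4% for ICAM4.

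The study designed assays at ICAM1 and ICAM4, and their primers show which part of each gene they read. They are printed in lower case, 5′ to 3′, as the study lists them, and were located in hg38 by exact matching.
ICAM1 mRNA forward: ggcctcagtcagtgtga
ICAM1 mRNA reverse: aaccccattcagcgtca
ICAM4 mRNA forward: agctcaattgcagcaacagc
ICAM4 mRNA reverse: ctgtggggcggtttgtagg
ICAM1 chromatin forward: cctccctcgtcaagatccaa
ICAM1 chromatin reverse: gaaatcggcgtcctctctct
ICAM4 chromatin forward: ggtctctgttccctctgtcg
ICAM4 chromatin reverse: attgagctgcactgacttcc

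The ICAM1 mRNA primers lie in exon 4 (chr19:10284214-10284230) and exon 5 (chr19:10284496-10284512) and frame 217 bp of the spliced transcript. For ICAM4 the forward mRNA primer lies in exon 1 (chr19:10287209-10287228). Its partner had 0 matches in the genomic sequence of the region and matched the spliced transcript across the junction of exons 1 and 2, giving a product of 211 bp. The chromatin primers of ICAM1 frame 205 bp at chr19:10270260-10270464, from -833 to -629 relative to the first GENCODE base, which is upstream of the promoter stretch printed above. Those of ICAM4 frame 200 bp at chr19:10287017-10287216, from 62 to 261 bases after the first base and within exon 1. No values from these assays were analysed here.

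ICAM3, a ligand of LFA-1 on resting leukocytes, had the highest level of the family in both experiments. Its pooled base mean was 7486 in the knockdown experiment and 8316 in the LSD1 inhibition experiment. Per kb of exon these were 2685 and 2983. The length is the union of all annotated exons and can exceed that of the transcript expressed. For ICAM2 it is 3243 bp, against 1334 bp for the longest transcript, so levels of different genes are only roughly comparable. Shares of the family's level and percentages of genes below were computed with this length only. ICAM3 stood above 96.7% of the 17298 protein-coding genes that had any signal (base mean above 0) in the knockdown experiment and above 96.8% of 17050 in the LSD1 inhibition experiment. Of the summed level per kb of the 5 members it made up 57.5% and 68.7%.

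ICAM1, the cytokine-inducible member, had a base mean of 4493 in the knockdown experiment and 1366 in the LSD1 inhibition experiment. Per kb of exon the levels were 1303 and 396, which placed ICAM1 above 92.4% and 76.9% of protein-coding genes. Per kb it took place 2 of 5 in the first experiment and place 3 in the other, exchanging places with ICAM4. Without division by length ICAM1 kept place 2 in both. Its share of the family's level per kb was 27.9% in the knockdown experiment and 9.13% in the LSD1 inhibition experiment.

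ICAM4, the LW blood group antigen, was well represented in this myeloid line. Its base mean was 792 in the knockdown experiment and 1109 in the LSD1 inhibition experiment, or 550.4 and 770.5 per kb of exon. ICAM4 thereby took places 3 and 2 in the family per kb, above 81.7% and 86.3% of protein-coding genes, with 11.8% and 17.8% of the family's level per kb.

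ICAM2 had base means of 338 and 432 in the knockdown and LSD1 inhibition experiments, or 104 and 133 per kb of exon. It took place 4 in both, above 54.1% and 58.5% of protein-coding genes with any signal. Among those that reached a base mean of 10, it stood above 37.0% and 43.7%. ICAM5, the neuronal member, was lowest in both, with base means of 90.8 and 223, or 23.1 and 56.7 per kb of exon. ICAM5 stood above 39.6% and 47.3% of protein-coding genes and contributed 0.494% and 1.31% of the family's level per kb.

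**Figure D2:**
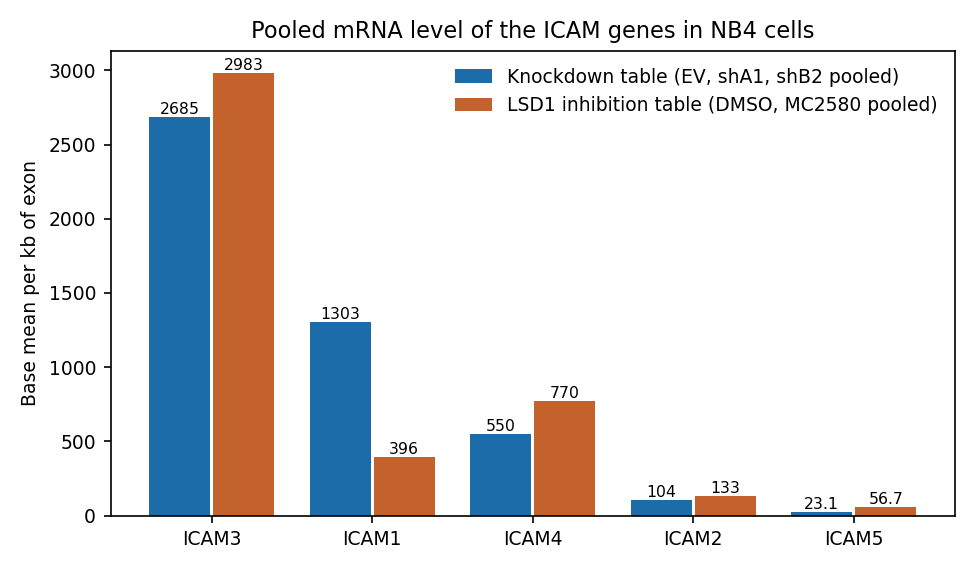
Pooled base mean per kb of exon (linear scale) of the 5 ICAM genes, 1 bar per gene and experiment, without error bars because no values per library enter it. ICAM3 is highest and ICAM5 lowest in both experiments, and ICAM1 lies above ICAM4 in the knockdown experiment (1303 against 550.4) but below it in the LSD1 inhibition experiment (396 against 770.5), where without division by length it lies above it (1366 against 1109).

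In the knockdown experiment the order per kb of exon was ICAM3, ICAM1, ICAM4, ICAM2 and ICAM5. Neighbours in that order were 2.06-fold (ICAM3 over ICAM1), 2.37-fold (ICAM1 over ICAM4), 5.28-fold (ICAM4 over ICAM2) and 4.52-fold (ICAM2 over ICAM5) apart, and the highest and lowest members 116-fold. The steps on either side of ICAM2 depended on its length: per kb of the longest transcript ICAM4 was 2.25-fold above ICAM2, and ICAM2 8.46-fold above ICAM5. In the LSD1 inhibition experiment the order was ICAM3, ICAM4, ICAM1, ICAM2 and ICAM5. The neighbouring steps were 3.87-fold (ICAM3 over ICAM4), 1.94-fold (ICAM4 over ICAM1), 2.97-fold (ICAM1 over ICAM2) and 2.35-fold (ICAM2 over ICAM5), and the whole range 52.6-fold. Per kb of the longest transcript the steps on either side of ICAM2 were 1.42-fold (ICAM1 over ICAM2) and 4.40-fold (ICAM2 over ICAM5). Whether neighbours differed beyond the spread between libraries could not be read from pooled means. ICAM1 was thus 2.37 times ICAM4 in one experiment and 0.514 times ICAM4 in the other, while ICAM3 exceeded ICAM1 by 2.06-fold and 7.53-fold. The exchange of ICAM1 and ICAM4 was there only per unit of length: by base mean alone ICAM1 stood above ICAM4 in the LSD1 inhibition experiment too (1366 against 1109).

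**Figure D3:**
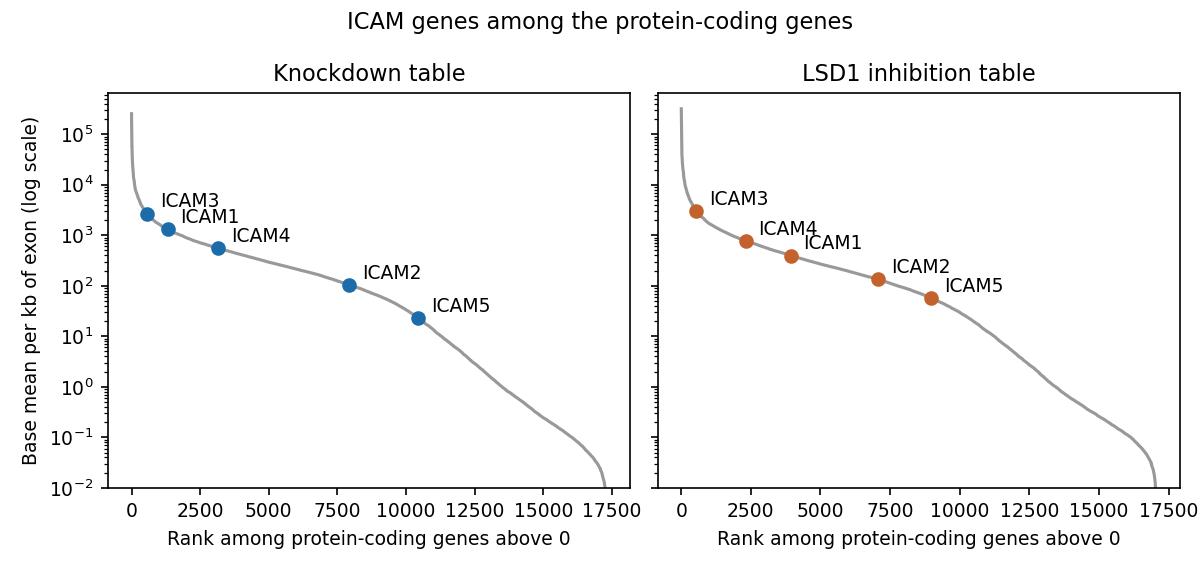
Base mean per kb of exon (log scale) against rank among the protein-coding genes whose base mean was above 0, for each experiment, with the highest gene at the left. The grey curve is all these genes and the points are the ICAM genes. In the knockdown and LSD1 inhibition experiments, ICAM3 stands above 96.7% and 96.8% of genes, ICAM1 above 92.4% and 76.9%, and ICAM5 above 39.6% and 47.3%.

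The experiments were set side by side by dividing each base mean by its table's sum. The experiments differ in transduction, time, treatment and the conditions pooled, and their tables were normalised separately, so these sources of a ratio cannot be told apart and no ratio was tested. ICAM1 had a ratio of 0.299 (LSD1 inhibition over knockdown), or a level 3.34-fold higher in the knockdown experiment. Of the 10916 protein-coding genes that reached a base mean of 50 in both tables, 0.431% had a lower ratio. ICAM5 had a ratio of 2.42 and lay at the other end, with 99.8% of genes lower. ICAM4 had a ratio of 1.38 (90.5% lower), ICAM2 of 1.26 (84.4% lower) and ICAM3 of 1.09 (70.0% lower). The median ratio over those genes was 0.938, with 0.540 and 1.52 as the 5th and 95th percentiles, and 58.6% of them lay below 1. In the family, 1 of 5 lay below 1 and 4 above, with a median of 1.26.

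Within the chromosome 19 cluster the adjoining genes ICAM1, ICAM4 and ICAM5 therefore had ratios of 0.299, 1.38 and 2.42. The nearest gene before ICAM1 that does not overlap it, MRPL4, a mitochondrial ribosomal protein gene, had a ratio of 1.57. ZGLP1, the next after ICAM5, had a ratio of 1.96. ICAM1 was the low value among these 5 neighbours. Farther along the cluster, ICAM3 had a ratio of 1.09, and the protein-coding genes next to it, RAVER1 and TYK2, had 0.871 and 1.00. Summed over the family, the level per 1000000 was 326 in the knockdown experiment and 278 in the LSD1 inhibition experiment, a ratio of 0.853. Without ICAM1 that ratio was 1.14.

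**Figure D4:**
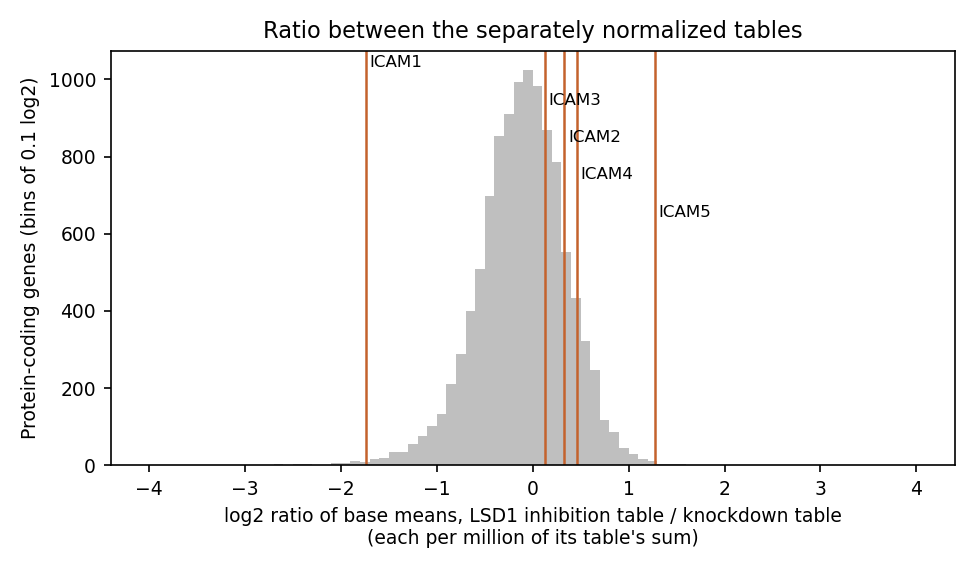
Distribution of the log2 ratio of base means (LSD1 inhibition over knockdown, each per 1000000 of its table's sum) over 10916 protein-coding genes, with the 5 ICAM genes marked. ICAM1 (ratio 0.299) lies in the left tail and ICAM5 (ratio 2.42) in the right tail, while ICAM3 (ratio 1.09) lies near the centre.

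Other annotated transcripts share exon sequence with 4 of the 5 members, and the library kit kept no strand information, so reads from both strands cannot be told apart there. For ICAM3 the antisense long noncoding RNA ENSG00000274425 covers 75.4% of the exon bases. It had base means of 1379.6 and 2165, or 18.4 and 26.0 for every 100 of ICAM3. All exon bases of ICAM4 lie under ICAM4-AS1, on the opposite strand, whose base means were 32.7 and 33.9, or 4.12 and 3.06 for every 100 of ICAM4. ICAM1 shares 23.6% of its exon bases with ICAM4-AS1 and 1.77% with the antisense transcript LIMASI, whose base means were 78.8 and 124, or 1.75 and 9.08 for every 100 of ICAM1. ICAM2 shares 26.8% with PRR29, whose base means were 45.6 and 65.4, or 13.5 and 15.1 for every 100 of ICAM2. ICAM5 overlaps none. How reads were divided between these transcripts was not tested, and the levels of ICAM1, ICAM2, ICAM3 and ICAM4 carry this uncertainty.

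The receptors of the ICAMs were also measured, and 4 of 6 reached a base mean of 50 in both experiments. ITGB2, the shared beta2 chain, had base means of 11677 and 8720 in the knockdown and LSD1 inhibition experiments (ratio 0.735). ITGAM, the Mac-1 chain, stood at 2007 and 1407 (ratio 0.690). The chain of LFA-1, ITGAL, stood at 847 and 265 (ratio 0.308), and ITGAX at 1156 and 339.7 (ratio 0.289). All 4 ratios were below 1, as were 58.6% of all genes that reached a base mean of 50 in both experiments. The median of the 4 was 0.499, against 0.938 over all those genes. ITGAD was low (24.4 and 10.5), and CD209, the dendritic cell lectin that binds ICAM3, was near 0 (0.149 and listed at 0).

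The cytoplasmic linkers were abundant. MSN (moesin) had base means of 90345 and 77549, EZR (ezrin) 16567 and 14562, ACTN1 20762 and 19913, ACTN4 5481 and 3894, and RDX (radixin) 2649 and 1379. Their ratios ran from 0.512 (RDX) to 0.944 (ACTN1) with a median of 0.845, against 0.938 over all genes that reached a base mean of 50 in both experiments. Below 1 were 5 of 5 linkers, and 58.6% of all those genes. Among 7 other adhesion molecules of the immunoglobulin superfamily, 4 reached a base mean of 50 in both. PECAM1 (CD31), which acts at endothelial junctions and on myeloid cells, had base means of 2048 and 689 (ratio 0.331). ALCAM stood at 2894 and 2329 (ratio 0.792), F11R (JAM-A) at 1897.5 and 1119.5 (ratio 0.581), and JAM3 at 153 and 194 (ratio 1.25). VCAM1, the endothelial ligand of VLA-4, was near 0, with 0.608 and 0.524. Of the 4 ratios, 3 were below 1 and 1 above, with a median of 0.686, beside the same 58.6% below 1 over all genes.

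The labelled cell type was checked against its markers. The granule enzyme gene MPO had base means of 506765 and 824818, and 5 of 6 promyelocyte markers exceeded 10 in both experiments, ELANE being near 0 (1.10 and 3.87). The ratios of these markers were above 1 for 4 of 5, against 41.4% of all protein-coding genes given a ratio. Their median was 1.60, against 0.938 over all those genes. The part of these markers in the ICAM ratios was not tested. Erythroid, endothelial and neuronal markers were low, and platelet markers were not among the lists. The erythroid gene AHSP was listed at 0 in both, HBB had base means of 11.7 and 0, and KLF1 15.8 and 32.7. The highest of 4 endothelial markers, VWF, had base means of 9.004 and 3.66. Of the neuronal markers, SYP reached 28.6 and 34.9, and RBFOX3 4.45 and 4.35. Of the lymphoid markers, CD3D stood at 866 and 869 while CD3E was near 0 (1.55 and 2.98), and CD79A stood at 120.5 and 116 while MS4A1 was near 0 (0.217 and listed at 0). GSE1, the target of the hairpins, had pooled base means of 2963 and 4441, and KDM1A, which encodes LSD1, 7648 and 6285. A base mean pooled over EV and both hairpins does not check the knockdown.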

How the data were processed

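Poly(A) RNA libraries were made with the TruSeq RNA v2 kit. The submitters' processing notes name bcl2fastq 2, FastQC 0.11.5, STAR 2.7, RSEM and DESeq2 with the build hg38, without stating all settings. The authors deposited 1 table per experiment, and the deposited signal used here is the DESeq2 base mean, the mean of size-factor-scaled counts over all libraries of that experiment. The other 15 value columns hold the authors' own 3 comparisons (log2 fold changes, standard errors, test statistics, p-values) and were not used.

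From the base means, Python 3.11.15 with pandas 2.3.3 and numpy 2.4.6 computed levels per kb of the union of annotated exons, places among protein-coding genes and the ratio of both tables (each per 1000000 of its sum; base mean of at least 50 in both). Gene identifiers were matched without version to GENCODE 44, for 60261 of 60603 genes. Of these steps, only the ratio (there divided by its median) and the percentage of genes below a value were tested on simulated data. The library depth is unknown from these columns, so no interval or test was given and samples were grouped only by experiment. Alternatives were other lengths, filters, scalings and a pseudocount of 1. Named genes were the 5 members, their neighbours, and fixed lists of receptors, linkers, adhesion molecules and cell markers, of which 1 marker is not reported here. The members and lists were chosen with earlier results of these data known. The labels name the inhibitor MC280 in titles and MC2580 in the treatment field, and it was taken as MC2580. RefSeq promoter windows matched 4 of 5 members (none for ICAM2).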

Additional observations from a re-analysis of the deposited data

How the results depend on the processing

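Of 96 alternative values, 71 moved by less than 1.5 times, 24 moved by more, and 1 reversed. Per kb of coding sequence, the knockdown levels were 2815 (ICAM1), 409.8 (ICAM2), 4562 (ICAM3) and 974 (ICAM4), and the LSD1 inhibition levels were 856, 524, 5067 and 1364. Per kb of the longest transcript, ICAM2 had 253 and 324. A shorter length raises these values by construction. Without division by length, 3 of 5 members kept their place in the LSD1 inhibition experiment, since ICAM1 (1366) then stood above ICAM4 (1109) and the fold of ICAM4 over ICAM1 turned to 0.812. ICAM1 over ICAM4 was then 5.67 and ICAM4 over ICAM2 2.34 in the knockdown experiment, and ICAM3 over ICAM4 7.5002 in the LSD1 inhibition experiment. In the knockdown experiment, ICAM4 over ICAM2 was 2.38 per coding length and 2.25 per longest transcript, and ICAM2 over ICAM5 12.5 and 8.46. In the LSD1 inhibition experiment, ICAM1 over ICAM2 was 1.63 and 1.42, and ICAM2 over ICAM5 6.51 and 4.40. Among genes that reached a base mean of 10, ICAM5 stood above 17.04% in the knockdown and 28.5% in the LSD1 inhibition experiment. ICAM2 then stood above 37.0% and 43.7%, below the middle in both experiments. The filter removes genes below these members. No paired analysis was possible because the columns used carry no value per library, and for the same reason no replicate was left out and no count test was run. Each other scaling multiplies the ratios of all genes by 1 common factor, and a pseudocount of 1 is small beside these base means. ICAM1 had a ratio of 0.319 under the scaling that moved it most. That all 5 members kept their side of 1 was therefore given by construction and is no independent check. The 71 values that moved by less than 1.5 times include these ratios. Pooled means limit every value here: the spread between 2 replicates, the depth of each library and the responses to knockdown or MC2580 are not analysed here.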
